A study of Mus musculus with 54 samples.

Results

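The transcription factor Ebf1 was bound, in a progenitor B cell line, at 1172 deposited regions near genes that the authors had selected as enriched in wild-type progenitors. Of these, 373 lay in chromatin that was open in progenitors lacking Ebf1 and carried no Pax5 peak, and they are called Ebf1-only open regions below. That name refers to Pax5 alone, and many of the regions overlapped peaks of other factors. The 373 regions were chosen by the authors' peak calls: a region of the table of regions accessible in both wild-type and Ebf1-deficient cells was taken when the list of peaks merged into it did not name Pax5. Another 543 regions of that table named Pax5, and 256 Ebf1-bound regions were closed without Ebf1. Of the 373 regions, 354 merged 2 peaks and 19 merged 3. The table gives no Pax5 peak height, so regions that nearly passed or nearly missed the Pax5 call cannot be shown.

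All primary cells were C57BL6/J fetal liver progenitors labelled pro-B, expanded on OP9 stroma with KIT ligand, FLT3 ligand and IL-7. They were wild type (Wt), Ebf1-KO or E2A-KO, the last lacking the E-protein encoded by Tcf3. For the induction experiment, Ebf1-KO cells were transduced with the retroviral vector pMiG-Ebf1ER, whose Ebf1 fusion enters the nucleus when 4-hydroxytamoxifen (4OHT, labelled 1mM) is added, and GFP-positive cells were profiled by ATAC-seq at 0, 6, 24 and 72 h. No labelled sample received 4OHT without Ebf1ER, so effects of 4OHT or of time in culture cannot be told apart from those of Ebf1. Ebf1 and Pax5 peaks, a list of accessible regions and H3K4me3 PLAC-seq contacts came from the Abelson-transformed line 230-238. Binding in the primary cells is therefore not what defined the regions.

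Ebf1 is a zinc-knuckle transcription factor that commits lymphoid progenitors to the B lineage, and Pax5, which it activates, maintains that identity and shares many targets with it. Chromatin that is accessible before a factor arrives is often called primed, because nucleosome-remodelling complexes and other factors have already exposed the DNA. BRG1 is the ATPase of the SWI/SNF remodelling complex, EP300 is an acetyltransferase that marks active enhancers, and RNA polymerase II (PolII) marks transcribed or loaded sites. Fli1, an ETS-family factor, and Ikzf1, the zinc-finger factor Ikaros, are both expressed across early blood and lymphoid cells.

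The Ebf1-only open regions had a median length of 959 bp, with quartiles of 732 and 1243 bp. The open regions with Pax5 were longer, with a median of 1172 bp, and the closed regions shorter, with a median of 664.5 bp. Introns held 152 of the 373 regions (40.8%), intergenic sequence 121 (32.4%), promoters 56 (15%) and other annotations 44 (11.8%). The median distance to the nearest transcription start was 5658 bp, against 3411 bp for open regions with Pax5 and 12621.5 bp for closed regions. The nearest starts belonged to 316 genes, and regions are named below by that gene, which need not be the gene they act on. Tanc1 had 4 regions, and Lrmp, Cyth1, Cxcr4 and Socs3 were among the genes with 3 each.

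Promoter sequence was available for 57 of the 373 regions, those that held a whole RefSeq window of 250 bases before to 50 bases after a gene's start, in 74 windows. Ebf1 recognises a near-palindrome whose core, CCCNNGGG, reads the same on both strands. The stretches below, each of 140 bases on the gene's strand from RefSeq's GRCm38.p6, show this core in capitals at 6 promoters. The first 4 were at least 2-fold more accessible after 72 h of 4OHT, Hmgcll1 had more BRG1, EP300 and PolII in Wt than in Ebf1-KO, and Ccnd3 was under 2-fold at 72 h with less PolII in Wt. They were chosen after their values were seen, and Tac4 and Sapcd2 were under 2-fold once the shift of the whole table, described below, was removed.
Niban3 (Fam129c in the files), chr8:71597498-71597637, plus strand: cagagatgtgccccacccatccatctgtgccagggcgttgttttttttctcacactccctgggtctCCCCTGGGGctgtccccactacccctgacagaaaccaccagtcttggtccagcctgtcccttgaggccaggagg
Ceacam1, chr7:25477576-25477715, minus strand: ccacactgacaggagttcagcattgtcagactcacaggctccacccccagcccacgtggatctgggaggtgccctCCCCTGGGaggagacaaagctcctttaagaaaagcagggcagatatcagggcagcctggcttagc
Tac4, chr11:95261279-95261418, plus strand: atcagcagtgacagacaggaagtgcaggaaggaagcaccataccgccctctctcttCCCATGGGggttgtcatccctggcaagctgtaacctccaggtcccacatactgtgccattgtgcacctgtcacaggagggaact
Sapcd2, chr2:25371844-25371983, plus strand: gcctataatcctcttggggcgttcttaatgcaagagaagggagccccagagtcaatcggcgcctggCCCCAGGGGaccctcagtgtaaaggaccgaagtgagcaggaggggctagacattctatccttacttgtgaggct
Hmgcll1, chr9:76014887-76015026, plus strand: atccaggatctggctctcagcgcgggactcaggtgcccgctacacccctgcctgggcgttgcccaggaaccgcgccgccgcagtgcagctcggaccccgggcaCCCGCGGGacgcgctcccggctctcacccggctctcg
Ccnd3, chr17:47593254-47593393, plus strand: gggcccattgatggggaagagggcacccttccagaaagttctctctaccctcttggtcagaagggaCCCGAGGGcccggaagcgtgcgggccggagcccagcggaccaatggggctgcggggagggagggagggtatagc

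The capitals began 144 bases upstream of the start of Niban3, 15 upstream at Ceacam1, 194 upstream at Tac4, 125 upstream at Sapcd2 and 147 upstream at Ccnd3. The core occurred in 27 of the 74 windows (36.5%), in 34.7% of 196 windows inside open regions with Pax5 and in 13.7% of all 32817 RefSeq windows. Some of the windows overlap on opposite strands, and by region the core was in 22 of the 57. At 72 h, 5 of these 22 regions and 3 of the 35 without the core were at least 2-fold higher. The median log2 ratios were 0.48 (0.25 to 0.94) and 0.55 (0.38 to 0.66). Regions with the core thus had the larger count past 2-fold but not the higher median. The intervals overlapped, and the difference was not tested. The core with a T before it and an A after it occurred in 3 of the 74 windows (4.05%), against 0.905% of all windows. An ETS-type hexamer, AGGAAG or its complement CTTCCT, was in 35.1% of the 74 windows and in 35.4% of all windows. The Ikaros-type hexamer TGGGAA or TTCCCA, which can overlap an EBF core, was in 20.3% and 25.6%, and the E-box CAGGTG or CACCTG in 21.6% and 20.2%. These are letter matches in promoter windows, and the distal regions, which are most of the 373, were not searched.

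The values that follow are tags per region scaled by the authors to 10000000 tags per library. Each group is a single column, pooled by the authors from the labelled libraries for ATAC-seq, H3K4me3 and H3K27me3 and from 1 library for the other marks and factors. There was therefore no spread between replicates and no test between conditions. Intervals are 95% and cover counting error for a single region, or the spread over regions for a median. A region was counted as higher or lower when the ratio of (tags + 1) was at least 2-fold. In such bulk samples, fewer cells with an open region and less signal per cell cannot be told apart.

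Across the time course, accessibility at the Ebf1-only open regions moved upward with the whole table of Ebf1-bound regions. Their median level was 10.2 tags at 0 h, 13.2 at 6 h, 15.8 at 24 h and 17.0 at 72 h. Open regions with Pax5 went from 17.8 to 28.8 tags at 72 h and closed regions from 3.0 to 4.6, an order of open and closed that the selection fixed. Per kilobase the Ebf1-only open regions had medians of 11.2 tags at 0 h and 19.2 at 72 h, and the open regions with Pax5 16.2 and 25.3. Thus the Ebf1-only open regions were less accessible than those with Pax5 at the start and at the end, also per length, a difference that was not tested.

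The median log2 ratio to 0 h was 0.31 (0.26 to 0.35) at 6 h, 0.51 (0.46 to 0.57) at 24 h and 0.51 (0.48 to 0.57) at 72 h. Over all 1172 regions the medians were 0.26, 0.47 and 0.50, and trimmed-mean (TMM) scaling of the table would remove shifts of 0.29, 0.51 and 0.56. Relative to that shift the Ebf1-only open regions had medians of 0.02, -0.0045 and -0.05. At 6 h, 22 regions (5.90%) were at least 2-fold higher, against 5.97% of all regions in the table, and 0 were lower, against 0.597%. At 24 h, 66 regions (17.7%) were higher against 16.1%, and 0 were lower against 0.853%. At 72 h, 71 regions (19%) were higher against 18.2%, and 1 was lower against 0.597%. The share that gained accessibility thus lay near that of all 1172 Ebf1-bound regions, which include the Ebf1-only open regions, at each time. Regions without Ebf1 were not read over the time course. The TMM shifts came from the same 1172 regions, so a gain common to all of them is removed by that scaling.

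After TMM scaling 7 regions were higher and 2 lower at 6 h, 22 and 4 at 24 h, and 22 and 4 at 72 h, where the whole table of 1172 had 32 and 23, 67 and 35, and 76 and 36. By counting error alone, the ratio of 72 h to 0 h tags had an interval above 1 in 202 regions and below 1 in 1, the region near Il5ra, which encodes the interleukin-5 receptor alpha chain. After TMM scaling these counts were 72 and 28. Over all 1172 regions they were 618 and 8 before scaling and 199 and 122 after it. The highest of the 4 values fell at 72 h in 183 regions, at 24 h in 139, at 6 h in 41 and at 0 h in 10. Over all 1172 regions these counts were 560, 422, 139 and 51. In 104 regions (27.9%) the value went up at each step, against 326 (27.8%) of all 1172. The shares were 31.5% of open regions with Pax5 and 19.9% of closed regions.

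**Figure D1:**
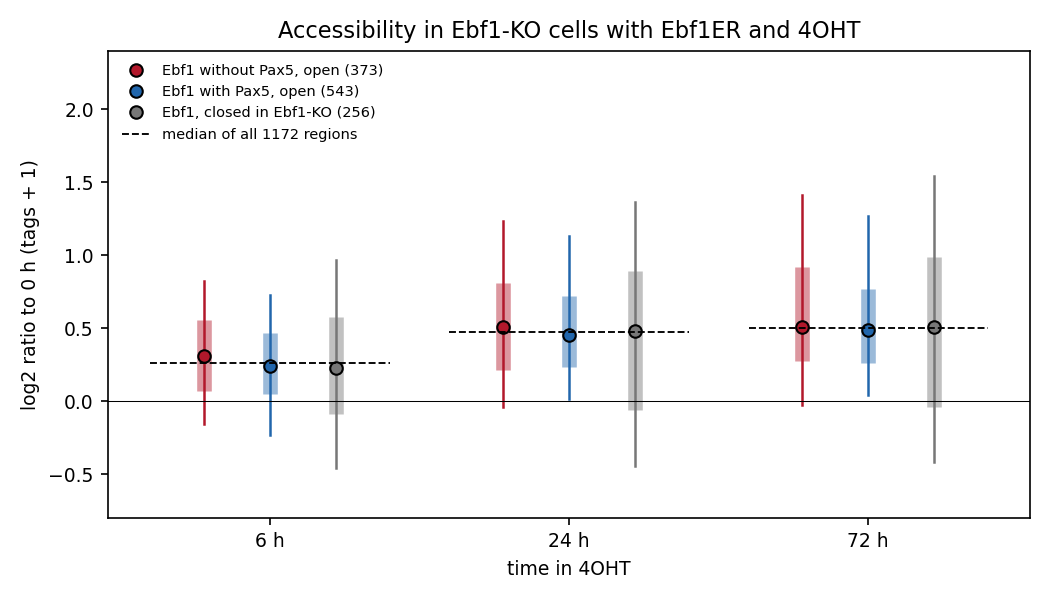
Log2 ratio of accessibility (tags + 1) at 6, 24 and 72 h of 4OHT to 0 h, for the 373 Ebf1-only open regions, the 543 open regions with Pax5 and the 256 closed regions. Dots are medians, thick bars quartiles, thin lines the 10th to 90th percentiles over regions, and the dashed line is the median of all 1172 regions. The medians of the Ebf1-only open regions were 0.31, 0.51 and 0.51, close to the dashed lines at 0.26, 0.47 and 0.50.

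A smaller set of the Ebf1-only open regions gained more than the table-wide shift. The intergenic region chr14:70849759-70850747 (mm10, as all coordinates of the files), 2.68 kb from 2410012E07Rik, went from 7.40 tags at 0 h to 31.4, 60.1 and 53.9 at 6, 24 and 72 h, a 7.28-fold difference at 72 h (5.05 to 10.8). It was high from 24 h on, and its 72 h value was slightly under its 24 h value. An intron region of Impdh1 (chr6:29214120-29214821), which makes guanine nucleotide precursors, went from 3.17 to 13.8, 19.9 and 25.4 tags, 7.99-fold at 72 h (4.59 to 14.9). The Fam129c promoter region, whose sequence stands above and whose gene is expressed in B cells, went from 6.13 to 24.5, 33.9 and 30.8 tags (5.03-fold, 3.31 to 7.86). The regions near 2410012E07Rik and Fam129c had their highest value at 24 h, and that of Impdh1 at 72 h.

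The other 3 of the 6 regions with the largest ratios also had their highest value at 72 h. A region in an intron near Cxcl17, a chemokine gene, had 3.17, 6.91, 13.4 and 20.2 tags at the 4 times (6.36-fold at 72 h, 3.60 to 12.0). The region 4.88 kb from Akap12 (chr10:4260933-4261962), which anchors protein kinase A, had 5.50, 9.51, 24.0 and 30.2 tags (5.50-fold, 3.55 to 8.81). The region nearest Snord17, a small nucleolar RNA gene 26.4 kb away, had 16.1, 32.8, 65.0 and 70.9 tags (4.41-fold, 3.40 to 5.78). The gain from 24 to 72 h was small at the region near Snord17. All 6 regions with the largest 72 h ratios by the naming rule remained above 2-fold after TMM scaling, from 1.52 to 2.15 on the log2 scale.

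Other regions had high ratios already at 6 h. The promoter region of Slc17a9, a vesicular nucleotide transporter, had 29.8, 69.1, 99.7 and 94.5 tags. The region 55.9 kb from Alox5ap, needed for leukotriene synthesis, had 19.2, 47.0, 59.0 and 63.7 tags. After TMM scaling their 6 h ratios were 0.90 and 0.96 on the log2 scale, under 2-fold, and their 72 h ratios 1.08 and 1.12. At 24 h the naming rule added the region near Heyl, a Notch target gene, with 4.44, 13.8, 28.1 and 21.9 tags, and that near Arl5c, with 8.67, 14.7, 34.7 and 24.5.

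At the other end, the 4 regions with the lowest 72 h ratios among those with a larger value of at least 20 tags differed little from 0 h. Some regions with fewer tags had lower ratios, down to -1.36 on the log2 scale near Il5ra. An intron region near Tfeb, a regulator of lysosome genes, had 20.1, 22.2, 21 and 18.1 tags. The intergenic region 6.65 kb from Fosb (chr7:19316286-19317102), an AP-1 subunit, had 48.2, 45.8, 39.1 and 46.7, and that near Snx9, an endocytosis gene, 22.8, 20.5, 27.3 and 21.3. The Hivep2 region had 26.2, 30.8, 31.7 and 25.1. The counting intervals of all 4 ratios included 1. Against the table-wide shift they lay 0.60 to 0.69 below 0 on the log2 scale.

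**Figure D2:**
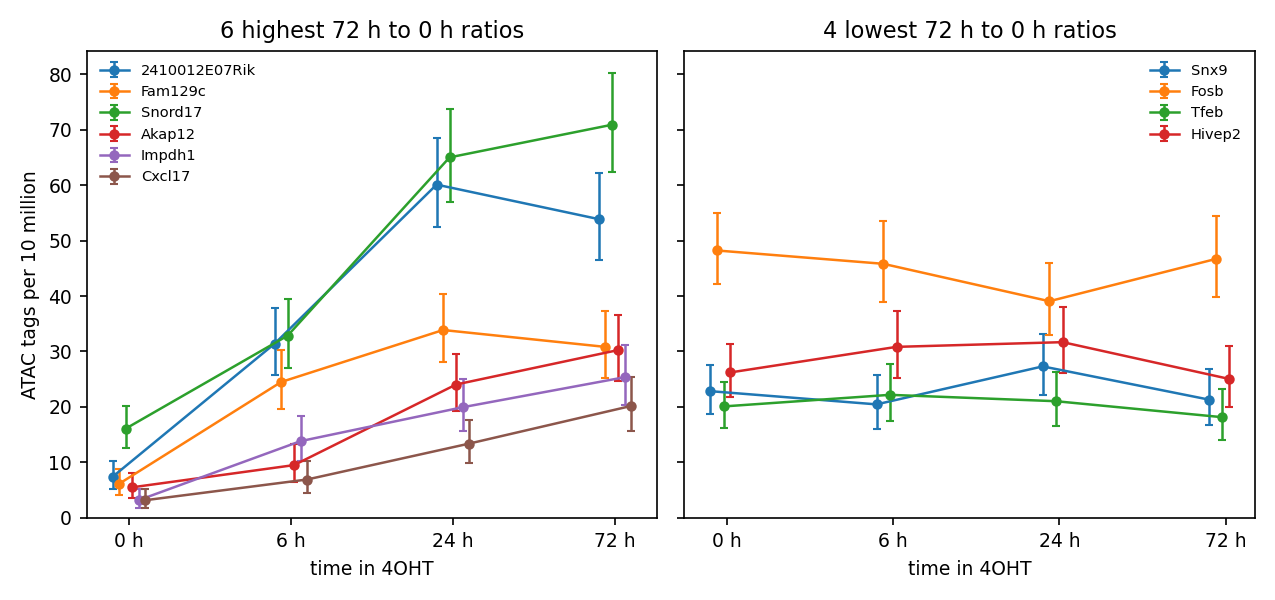
Accessibility in tags per region, scaled to 10000000 tags per library, at 0, 6, 24 and 72 h of 4OHT for the 6 Ebf1-only open regions with the highest and the 4 with the lowest 72 h ratio among those with a larger value of at least 20 tags. Points are the pooled values and bars exact Poisson 95% intervals. The region near 2410012E07Rik went from 7.40 to 53.9 tags, and the region near Fosb from 48.2 to 46.7.

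The 72 h response differed with the score the authors gave each merged region. The lower group of 126 regions had scores of 5.73 to 10.8, the middle group of 122 had 11.1 to 21.5 and the upper group of 125 had 22.2 to 146.5. At 72 h, 3 regions (2.38%) of the lower, 20 (16.4%) of the middle and 48 (38.4%, 30.3 to 47.2%) of the upper group were at least 2-fold higher. The median 72 h log2 ratios were 0.42, 0.49 and 0.91. Over the 373 regions the rank correlation of score and 72 h ratio was 0.36, a description over regions that share the same libraries. Length had a rank correlation of -0.00041 with the 72 h ratio. Which peak list the score comes from is not stated, and these groups were formed after the data were seen.

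**Figure D3:**
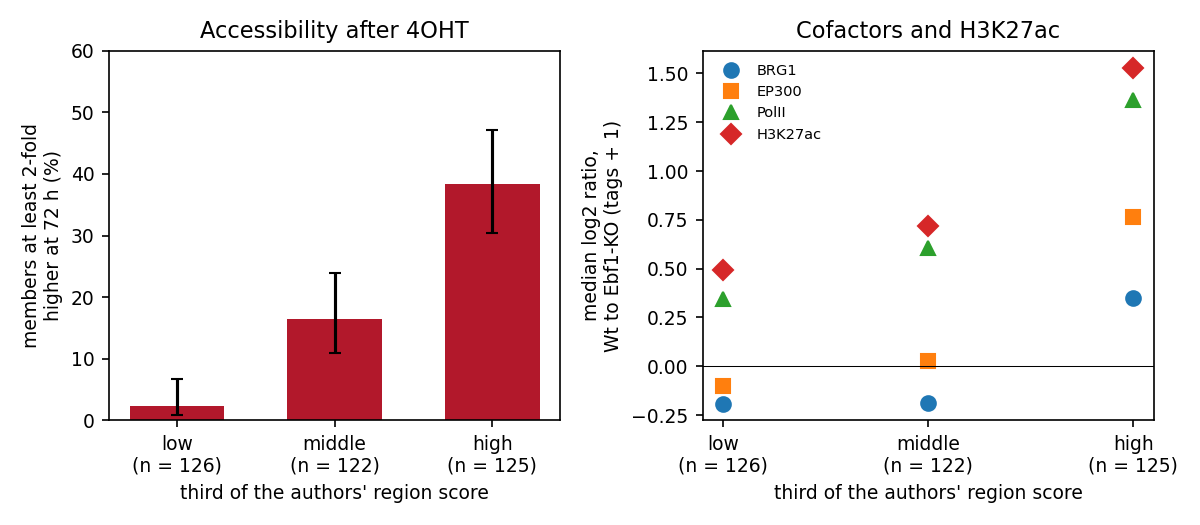
Left, percent of Ebf1-only open regions at least 2-fold more accessible at 72 h than at 0 h in the lower, middle and upper score groups (126, 122 and 125 regions), with Wilson 95% intervals. Right, median log2 ratio of Wt to Ebf1-KO (tags + 1) for BRG1, EP300, PolII and H3K27ac in the same groups: the upper group had the highest median for each.

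BRG1 was present at similar levels in Wt and Ebf1-KO cells over the Ebf1-only open regions. The median was 14.6 tags in Wt and 14.0 in Ebf1-KO, and the median log2 ratio was 0.01 (-0.10 to 0.15). BRG1 was at least 2-fold higher in Wt at 72 regions (19.3%), against 32.4% of all Ebf1-bound regions, and lower at 53 (14.2%), against 9.98%. Among open regions with Pax5 143 of 543 were higher and 57 lower (median 0.15), and among closed regions 165 of 256 were higher and 7 lower (median 1.43). The share higher in Wt at the Ebf1-only open regions was thus under that of the table, which holds the closed regions, and the share lower was above it, a difference that was not tested. After TMM scaling, which removed a shift of 0.30, 51 were higher and 81 lower, and the median was -0.29. Over all 1172 regions 307 were higher and 195 lower after scaling.

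Single regions differed strongly in both directions. The promoter region of Trem1 (chr17:48232198-48232990), a receptor of myeloid cells, had 21.2 BRG1 tags in Wt and 0 in Ebf1-KO, at least 33.7-fold higher against a floor of 3 tags in the library. An intron region near Lef1 (chr3:131117406-131118372), an HMG-box factor of early lymphocytes, had 43.1 and 3.36 (12.9-fold, 7.75 to 22.9), and a region 151 kb from Kynu, an enzyme of tryptophan breakdown, 47.7 and 3.98 (12-fold). The Lef1 intron region was no more accessible at 72 h (8.93 tags) than at 0 h (9.52). Lower in Wt were the region near Grm4, a glutamate receptor gene, with 4.35 against 44.9 tags (10.3-fold lower, 6.69 to 16.6), and that near Tfeb, with 3.59 against 26.2 (7.29-fold lower). An intron region of Irf8 (chr8:120740316-120740959), a factor of myeloid and B cells, had 0 tags in Wt and 18 in Ebf1-KO, at least 31.8-fold lower.

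EP300 values carry a doubt about the label: the antibody field of the Wt EP300 sample names PolII with a question mark. Over the 373 regions the Wt EP300 levels had a rank correlation of 0.69 with Wt PolII and 0.71 with Wt BRG1, and in Ebf1-KO the values were 0.71 and 0.81. These points share libraries, region lengths and accessibility, and the identity of the antibody was not tested. The median EP300 level was 13.1 tags in Wt and 10.0 in Ebf1-KO, a median log2 ratio of 0.26 (0.11 to 0.42). EP300 was higher in Wt at 99 regions (26.5%), against 36.9% of all regions, and lower at 54 (14.5%), against 11%. After TMM scaling, which removed a shift of 0.59, 59 were higher and 115 lower, with a median of -0.33. The whole table of 1172 then had 294 higher and 266 lower. The median before scaling was 0.48 at open regions with Pax5 and 1.5 at closed regions.

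The intergenic region 55.7 kb from the Lef1 start (chr3:131054138-131055139) had 65.0 EP300 tags in Wt and 2.04 in Ebf1-KO (31.9-fold, 18.3 to 60.7). An intron region of Klhl6, a B cell ubiquitin-ligase adaptor, had 21.2 and 0, at least 45-fold higher. A region nearest Prl2c5 had 65.5 and 2.19 tags (29.8-fold), but the Prl2c genes are near-identical copies and tags there can be shared. EP300 was far lower in Wt near Fosb, with 5.11 against 45.1 tags (8.83-fold lower, 5.67 to 14.5), and near Cmah, which makes a sialic acid form, with 4.38 against 31.0 (7.08-fold lower). The Cmah region had similar PolII in both genotypes, 11.3 and 10.3 tags.

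PolII differed more. The median was 22.2 tags in Wt and 10.6 in Ebf1-KO, with a median log2 ratio of 0.79 (0.54 to 0.95). It was at least 2-fold higher in Wt at 158 regions (42.4%), against 53% of all regions, and lower at 18 (4.83%), against 3.5%. The shift over all regions was large: TMM scaling moved ratios by 1.17. After it 63 were higher and 111 lower, and the median was -0.38, while the whole table of 1172 had 315 higher and 272 lower. The Ebf1-only open regions thus had more PolII in Wt in the deposited values, by less than the shift of the whole table. Before scaling, open regions with Pax5 had a median of 0.88 and closed regions 2.33.

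The distal Lef1 region had 132 PolII tags in Wt and 2.74 in Ebf1-KO (48.2-fold, 24.2 to 113). An intron region of Slc6a19 (chr13:73702564-73704194), a neutral amino acid transporter gene, had 89.0 and 1.71 tags (52.0-fold, 22 to 162). A region 0.582 kb inside Prkcb (chr7:122288934-122290481), the kinase that links the B cell receptor to NF-kB, had 65.5 and 1.37 (47.9-fold, 18.4 to 178). At Prkcb the accessibility was already 36.2 tags at 0 h and 53.6 at 72 h, so an open site with hardly any PolII in Ebf1-KO cells had a high PolII level in Wt. Near Wdfy4 (chr14:33189141-33190372, intergenic) the values were 167 and 7.52 tags (22.1-fold). PolII was lower in Wt near Fosb, 6.24 against 69.8 tags (11.2-fold lower, 6.72 to 19.9), and in Cpq, 8.97 against 59.9 (6.67-fold lower).

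**Figure D4:**
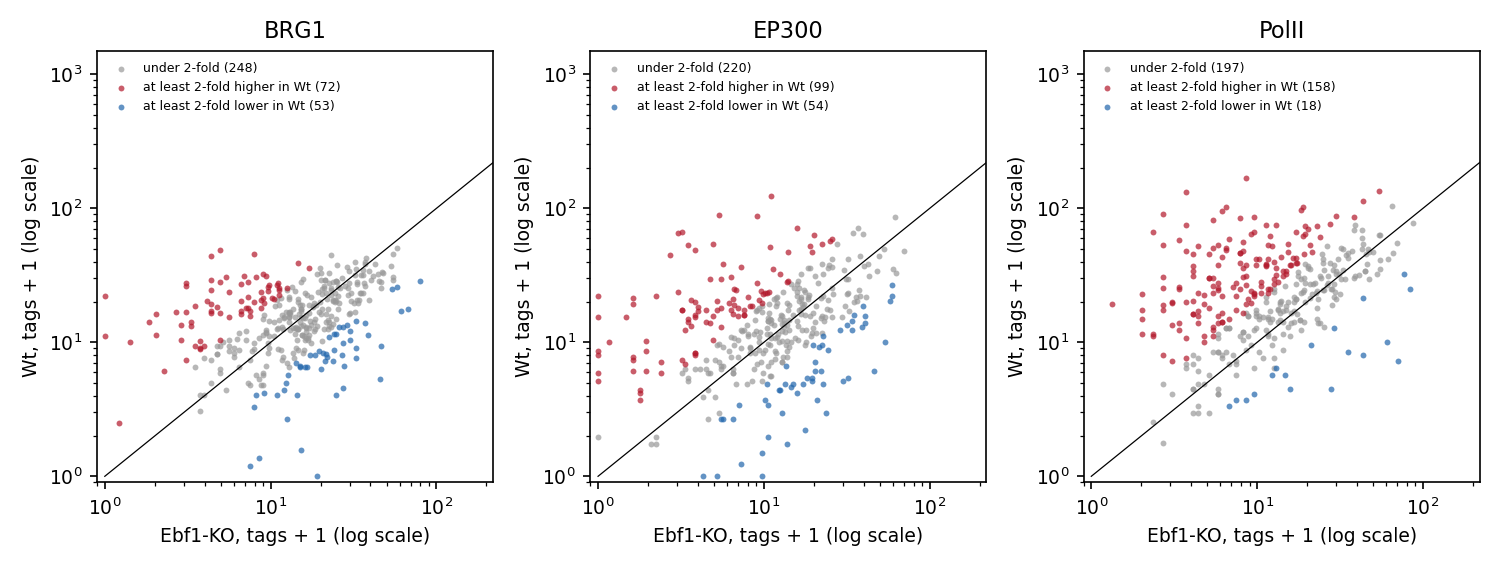
BRG1, EP300 and PolII tags + 1 at each of the 373 Ebf1-only open regions in Wt (vertical, log scale) and Ebf1-KO cells (horizontal, log scale). Each point is 1 region from a single library per genotype and the line marks equal values. Higher in Wt were 72, 99 and 158 regions and lower 53, 54 and 18.

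At a subset the 3 factors differed between the genotypes in the same direction. All of BRG1, EP300 and PolII were at least 2-fold higher in Wt at 41 Ebf1-only open regions (11.0%, 8.21 to 14.6%), against 22.2% of all 1172 regions, 18.4% of open regions with Pax5 and 46.5% of closed regions. All 3 were lower at 5 regions (1.34%), against 0.683% of all regions, among them those near C5ar2, Fosb, Irf8 and Snora34, which were singled out after their values were seen. Of the 41 regions, 34 were at least 2-fold higher in Wt for H3K4me2 and 34 for H3K27ac, against 34.9% and 43.4% of all 373. In E2A-KO 37 were less accessible than in Wt, against 51.2%, and 13 were higher at 72 h of 4OHT, against 19%. The 1 region lower at 72 h, near Il5ra, was also among the 41. They were selected by ratios of Wt to Ebf1-KO, which the histone marks also compare, so these counts are a description. The median 72 h log2 ratio was 0.63 at the 41 regions, 1.01 at the 5 regions with all 3 lower and 0.50 at the 327 regions in neither set. Of the 5 regions, 3 were at least 2-fold higher at 72 h before TMM scaling. The highest 72 h log2 ratio was 1.31 among the 5 and 2.71 among the 41, and the difference between the sets was not tested. The rank correlations between log2 ratios over the 373 regions were 0.61 for BRG1 with EP300, 0.57 for BRG1 with PolII and 0.55 for EP300 with PolII, all from regions of the same genotypes and cultures.

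The 72 h response and the Wt to Ebf1-KO differences use separate libraries. Of the 71 regions higher at 72 h, 51 (71.8%) had at least 2-fold more PolII in Wt, against 42.4% of all 373, and these made up 32.3% of the 158. For EP300 the overlap was 31 regions (43.7% against 26.5%), for BRG1 19 (26.8% against 19.3%) and for H3K27ac 48 (67.6% against 43.4%). The rank correlation of the 72 h ratio was 0.34 with that of PolII, 0.17 with EP300 and 0.12 with BRG1. Regions such as that near 2410012E07Rik had all of these, with PolII at 85.5 tags in Wt and 8.55 in Ebf1-KO and EP300 at 48.0 and 2.82. Others did not: the region near Susd1 went from 9.09 to 37.2 tags at 72 h, while its BRG1 was 19.7 in Wt and 33.1 in Ebf1-KO. By score, the upper group had median Wt to Ebf1-KO log2 ratios of 0.35 for BRG1, 0.77 for EP300 and 1.36 for PolII, and the lower group -0.19, -0.10 and 0.35.

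Histone marks were read at the same regions, 296 of 373 by identical position and the rest by largest overlap. H3K27ac, the mark of active enhancers and promoters, had a median of 24.0 tags in Wt and 10.7 in Ebf1-KO and a median log2 ratio of 0.82. It was higher in Wt at 162 regions (43.4%), against 37.4% of all 3642 regions of the histone table, and lower at 3, against 1.15%. After TMM scaling, which removed 0.77, 74 were higher and 26 lower, and over all 3642 regions 641 were higher and 385 lower. Before scaling, H3K27ac was higher in Wt at 245 open regions with Pax5 (45.1%) and at 205 closed regions (80.1%). The Slc6a19 intron had 169.8 tags in Wt and 10.9 in Ebf1-KO, the intron of Irf4, a factor of B cell differentiation, 49.9 and 4.44, and the region near Wdfy4 89.6 and 7.96. In Cpq it was 7.74 in Wt and 30.4 in Ebf1-KO.

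H3K4me2, found at promoters and enhancers, was higher in Wt at 130 regions (34.9%), against 30.3%, and lower at 25 (6.70%), against 7.58%. TMM scaling, a shift of 0.15, gave 116 and 32, and over all 3642 regions 1001 and 411. The median log2 ratio of H3K4me2, 0.29, differed by position, being -0.45 at the 56 promoter regions and 0.64 at the 121 intergenic regions. Before scaling, H3K4me2 was higher in Wt at 168 open regions with Pax5 (30.9%) and at 207 closed regions (80.9%). H3K4me3, the promoter mark, was higher in Wt at 86 (23.1%), against 25.2%, and lower at 51 (13.7%), against 15.4%, with a median of -0.02. An intron region of Cplx2, 0.570 kb from the start, had 221 H3K4me3 tags in Wt and 5.05 in Ebf1-KO, and one near Chchd10 202 and 7.19. A region 43.1 kb from Cxcr4, the receptor that holds progenitors in the marrow, went the other way, with 5.87 in Wt and 82.7 in Ebf1-KO.

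H3K27me3, the Polycomb mark, was low at most of these regions: only 71 of 373 had at least 5 tags in either genotype, and among those the median log2 ratio was -1.57. It was higher in Wt at 22 regions (5.90%), against 4.67%, and lower at 66 (17.7%), against 16.9%. The region inside Hes5, a Notch target, had 1.58 H3K27me3 tags in Wt and 32.1 in Ebf1-KO, with 34.0 accessibility tags at 0 h and 66.5 at 72 h. The 6 regions that the naming rule gives as highest were also lower in Wt, for example Inppl1 with 23.9 and 31.4 tags.

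E2A-KO progenitors had less accessibility than Wt at many of the Ebf1-only open regions. The median was 11.3 tags in E2A-KO and 30.6 in Wt, with a median log2 ratio of -1.03 (-1.11 to -0.94). Lower in E2A-KO were 191 regions (51.2%), against 37.6% of the 4829 regions of that table, and higher 2, against 1.01%. After TMM scaling, which removed a shift of -0.90, 67 were lower and 19 higher, and the median was -0.13. Over all 4829 regions 617 were lower and 470 higher after scaling. Before scaling, 319 of 543 open regions with Pax5 (58.7%, median -1.19) and 210 of 256 closed regions (82.0%, median -1.78) were lower. The Ebf1-only open regions thus had the lowest share of these classes, a difference that was not tested. Near Wdfy4 the E2A-KO and Wt values were 12 and 193 tags (16.1-fold lower, 13.2 to 19.8), near Akap12 5.71 and 83.6, and at the distal Lef1 region 6.88 and 92.3. The 2 regions higher in E2A-KO, near Fosb (37.0 against 16.0) and C5ar2 (11.1 against 5.01), were among the 5 with lower BRG1, EP300 and PolII in Wt. Over the 373 regions the E2A-KO to Wt and the PolII Wt to Ebf1-KO log2 ratios had a rank correlation of -0.62. Whether E2A loss also lowered Ebf1 in those cells was not tested here.

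Fli1 peaks from Wt cells overlapped 214 of the Ebf1-only open regions (57.4%, 52.3 to 62.3%), 421 of the open regions with Pax5 (77.5%, 73.8 to 80.8%) and 135 closed regions (52.7%). Ikzf1 peaks overlapped 79 (21.2%, 17.3 to 25.6%), 197 (36.3%) and 48 (18.8%). Lengths differed between the classes, but among regions of 500 to 1000 bp the Fli1 shares were 52.7%, 71.2% and 54.7% and the Ikzf1 shares 23.9%, 34.4% and 16.4%. Both factors had peaks at 67 Ebf1-only open regions (18%), Fli1 alone at 147, Ikzf1 alone at 12 and neither at 147. Neither was found at 39.4% of these regions and at 19.9% of open regions with Pax5. The authors listed 27261 Fli1 and 5741 Ikzf1 peaks, so the lower Ikzf1 share goes with a shorter list, and the class differences were not tested.

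**Figure D5:**
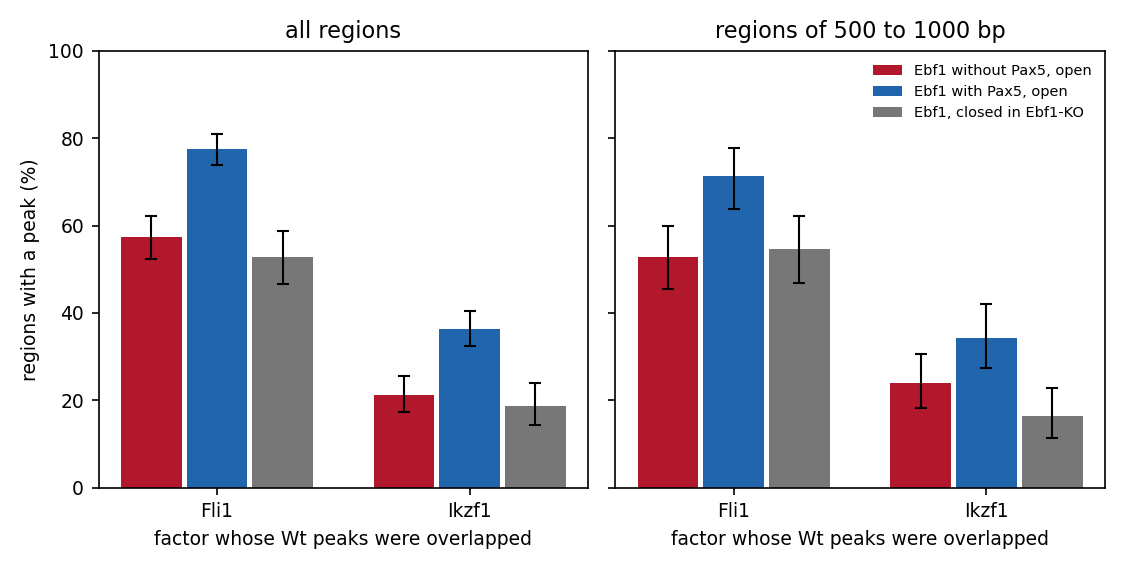
Percent of regions that overlap a Wt Fli1 or Ikzf1 peak among Ebf1-only open regions, open regions with Pax5 and closed regions, for all lengths and for 500 to 1000 bp. Bars are shares with Wilson 95% intervals. At all lengths the Fli1 shares were 57.4%, 77.5% and 52.7%.

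The peaks were called in Wt cells, so regions with a peak were selected in the genotype that also enters the ratios below, and these values are a description. Regions with both peaks had a median Wt accessibility of 44.3 tags, those with Fli1 alone 34.1, those with Ikzf1 alone 30.8 and those with neither 16.7. Median lengths were 991, 1034, 734.5 and 878 bp. The median PolII log2 ratio of Wt to Ebf1-KO was 1.26 with both, 0.84 with Fli1 alone and 0.46 with neither. For EP300 the medians were 0.53, 0.35 and 0.08, for BRG1 0.16, 0.11 and -0.14, and for E2A-KO against Wt accessibility -1.53, -1.09 and -0.77. The 12 regions with Ikzf1 alone had medians of 0.06 (-0.28 to 1.99) for PolII and -0.51 (-1.53 to 1.31) for EP300. For BRG1 and E2A-KO they were -0.017 and -1.01. The PolII and EP300 medians lay below those of regions with neither, but their wide intervals included those values. PolII was at least 2-fold higher at 5 and lower at 1 of the 12, against 47 and 13 of the 147 with neither. For EP300 these were 3 and 4, against 31 and 26. At 72 h of 4OHT, 19 of the 67 with both, 28 of the 147 with Fli1 alone, 2 of the 12 with Ikzf1 alone and 22 of the 147 with neither were at least 2-fold higher. The 5 regions with both peaks and the most 0 h accessibility lay near Mir7008, Dusp4, St3gal6, Ankrd13d and Tnfaip3, a brake on NF-kB signalling. Their 72 h ratios were between 1.17-fold and 1.54-fold, and they were open before Ebf1 was induced, from 36.2 tags near Ankrd13d to 77.0 near Mir7008.

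All 373 regions overlapped an accessible region of the Abelson line, and 372 of them over at least 50% of their length. H3K4me3 PLAC-seq contacts between bins of 5 kb in that line were listed for 335 regions (89.8%). The shares were 94.8% of open regions with Pax5 and 84.4% of closed regions. A region in either bin of a contact was counted, and which bin carried H3K4me3 was not checked. The median was 4 contacts per region, with quartiles of 2 and 7. Most contacts were at the Ptger4 region (47), followed by Btg1 (31), Man1a (30), Phlda1 (30) and Prkce (24). Of 286 distal regions with a contact, 63 reached the start of their nearest gene and 229 any annotated start. The distal Lef1 region contacted the bin of the Lef1 start with 38 deposited contact counts, and the 3 Cxcr4 regions contacted that of Cxcr4 with 29, 27 and 44. The region near Chchd10 contacted the bins of Smarcb1, a SWI/SNF subunit gene, with 177 counts and of Vpreb3 with 171.

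The regions were also read by gene list, with no comparison of the lists with one another. Of all 373 regions, 19% were higher at 72 h and 51.2% lower in E2A-KO. In Wt, PolII was higher at 42.4% and lower at 4.83%, and BRG1 was higher at 19.3% and lower at 14.2%. H3K27ac was higher at 43.4% and H3K4me2 at 34.9%. Each list held few regions, and its counts were not tested against these shares. Of 25 genes of pre-B cell receptor signalling, 4 had an Ebf1-only open region, in 5 regions at Blk, Cd22, Dok3 and Prkcb. Of these 5 regions 0 were at least 2-fold higher at 72 h (median 0.55), 3 were higher in Wt for PolII, 5 for H3K27ac, and 4 were lower in E2A-KO. At the promoter of Dok3, an inhibitory adaptor, PolII was 133 tags in Wt and 53.4 in Ebf1-KO. Near Cd22, an inhibitory coreceptor, EP300 was lower in Wt, 7.79 against 23.2 tags. In Blk, a Src-family kinase gene, BRG1 was 5.68 in Wt and 26.6 in Ebf1-KO, while H3K27ac was 43.8 and 16.1.

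Of 25 B-lineage regulators 7 had such regions, 8 in all: Ebf1, Fli1, Id3, Irf4, Irf8, Lef1 and Pou2f2. At 72 h 3 of the 8 were higher (distal Lef1, Pou2f2 and Irf8), though after TMM scaling these were under 2-fold, at 0.92, 0.89 and 0.46 on the log2 scale. In Wt 5 were higher and 1 lower for PolII and 3 higher and 2 lower for BRG1. An intron region of Pou2f2, which encodes Oct-2, had 5.29, 16.4, 21.3 and 16.1 tags over the time course, with BRG1 at 7.00 in Wt and 17.4 in Ebf1-KO. The region 71.4 kb from Fli1 itself had 95.6 PolII tags in Wt and 17.4 in Ebf1-KO and carried no Fli1 peak. A region 5.13 kb from Ebf1 had 9.52, 12.4, 15.8 and 10.4 accessibility tags, and as a distal site it does not check the deletion.

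Of 18 cytokine and surface receptor genes 4 had regions, 6 in all. Of these 6, 5 were higher in Wt for H3K4me2 and 1 was lower, against 34.9% and 6.70% of all 373 regions. For BRG1, 1 was higher in Wt and 2 were lower. The 3 regions of Cxcr4 differed from one another: that at 77.8 kb went from 5.07 to 23.3 tags at 72 h (4.60-fold, 2.89 to 7.59), that at 43.1 kb from 31.7 to 35.4, and that at 233 kb from 3.59 to 2.59. PolII in Wt and Ebf1-KO was 63.6 and 8.21 at the first and 12.1 and 24.3 at the second. Of 16 cell cycle and survival genes Bad and Ccnd3 had 3 regions, 2 of them with less PolII in Wt. The Bad region had 24.2 PolII tags in Wt and 82.4 in Ebf1-KO. Of 14 Notch and GTPase signalling genes Prkce and Rasgrp1 had 3 regions, 2 with less BRG1 in Wt, and 0 of 8 recombination genes had any. Among lists of other cell types, Cd5 was the only gene of 12 T cell genes with a region, and 0 of the natural killer, myeloid, erythroid, stromal and housekeeping genes had one. These counts read the genes the authors selected, not the makeup of the cultures.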

How the data were processed

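The series has 54 samples in 40 groups, and its tables were used as deposited. Per the submitters' processing notes, the tools included HOMER 4.10, HiC-Pro 2.11.1, Trim Galore 0.6.4, SAMtools 1.9 and Bowtie2 2.3.5, with the build GRCm38.p5 (mm10). Signal values are tags per region, scaled by the authors to 10000000 tags per library with HOMER and not divided by length, per the file headers. Library totals ran from 24557525 (H3K27ac) to 196071042 tags (H3K4me3), and the totals of the 6 h and 72 h columns are nearly the same. The score of each merged region and of each Fli1 or Ikzf1 peak is the authors', as deposited. The PLAC-seq list gives deposited contact counts and a deposited q-value, with 0.0499982 the largest listed, for 69898 contacts.

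Each group was 1 column, so the tests planned across replicates could not be made. For Wt ATAC the column name counts more pooled libraries than there are samples labelled Wt, and 2 columns of per-sample values without a labelled sample were not used. Log2 ratios used tags + 1. Intervals are exact Poisson for values, exact conditional for folds, order-statistic for medians and Wilson for shares, and a count of 0 was set to a floor of 3 tags. Repeated rows, 154 in the E2A table and 122 in the histone table, were removed. TMM factors were computed over all regions of a table, trimming 0.3 of ratios and 0.05 of levels. A region overlapped a peak when they shared any base. SciPy 1.17.1, pandas 2.3.3, numpy 2.4.6 and matplotlib 3.10.9 were used in Python 3.11.15, and the code was tested on simulated data.

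The regions and lists were chosen with earlier results of these data known. Per contrast the naming rule took the 6 highest and 4 lowest ratios among regions with at least 20 tags, 1 per gene, not all of which are described and some of which are not reported here, plus the 5 most accessible with both peaks, the 5 with most contacts, up to 4 genes per list and any region of some fixed genes. Il5ra at 72 h, the promoters shown, the sets in which 3 factors moved together and the score groups were chosen after their values were seen. Alternatives were TMM, a pseudocount of 5, a minimum of 5 tags, lengths of 500 to 1000 bp, no promoters, stricter peaks and contacts and, added after seeing the data, identical positions only.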

Additional observations from a re-analysis of the deposited data

How the results depend on the processing

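No paired analysis was possible because each group was 1 column, and no replicate could be left out. Leaving out promoters, run for the 3 times, BRG1, EP300 and PolII, moved none of their medians or counts beyond its limits. TMM scaling gave medians of 0.017, -0.0045 and -0.046 at 6, 24 and 72 h with 7, 22 and 22 regions higher, so the medians at 24 and 72 h changed sign. Under TMM the medians were -0.29 for BRG1, -0.33 for EP300 (59 higher), -0.38 for PolII (63 higher), -0.13 for E2A-KO (67 lower), 0.062 for H3K4me3, 0.14 for H3K4me2 and 0.045 for H3K27ac (74 higher), and those of BRG1, EP300, PolII and H3K4me3 changed sign. With a pseudocount of 5 the medians at 6, 24 and 72 h were 0.23, 0.40 and 0.42 with 6, 36 and 47 higher, 46 were higher for BRG1 and 0 for H3K27me3, and the medians were -0.83 for E2A-KO and 0.64 for H3K27ac. Counts among the 184 regions of 500 to 1000 bp are out of that smaller set, and their shares were not compared with those above. The regions higher were 39 at 24 h, 44 at 72 h, 29 for BRG1 (median -0.064, a change of sign), 54 for EP300 and 75 for PolII. Lower in E2A-KO were 95, and higher were 32 for H3K4me3, 61 for H3K4me2 and 83 for H3K27ac. Identical positions gave a median of 0.054 for H3K4me3, a change of sign, and a minimum of 5 tags a median of -1.57 for H3K27me3, a change of sign, with 2 higher. The upper 50% of peak scores gave 42.9% with Fli1 and 14.2% with Ikzf1, contacts with q under 0.01 gave 83.1%, and the core flanked by T and A 4.05%. Of the ratios of single named regions 294 kept their side of 2-fold under TMM, 28 passed it and 31 no longer did. Under TMM 45 changed sign, none of which was past 2-fold before scaling. With a pseudocount of 5 these were 328 and 25 that no longer did, and none changed sign. The planned motif searches of whole regions and of their central bases were not run. Regions with under 5 tags carry wide counting intervals, as for H3K27me3.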
